A study of Mus musculus with 4 samples.

Results

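Glucuronidation, sulfation and carboxylester hydrolysis were followed through the genes whose symbols begin with Ugt, Sult or Ces and a digit in the deposited expression table of jejunal epithelium. The rule found 50 symbols of 22456, made up of 13 Ugt, 18 Sult and 19 Ces symbols. Of these, 22 averaged 1 FPKM or more across the libraries and were tested, and 28 were only counted. FPKM scales fragments to transcript length and library size, so levels can be set side by side between genes.

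The 4 libraries came from epithelium of adult mouse jejunum, on a mixed 129xC57/Bl6xSvJ background. Of these, 2 came from mice whose labels read Hnf4a-/-;Cdx2-/-, here called the labelled double knockouts, and 2 from Cre- controls. All the mice, controls included, had received tamoxifen (1 mg on each of 5 days), and the epithelium had been freed in 5 mM EDTA for 45 min at 4 °C. HNF4A is a nuclear receptor and CDX2 a homeobox factor, both DNA-binding regulators of intestinal genes; the promoter driving Cre and the cells in which Cre acts are not named in the labels.

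UDP-glucuronosyltransferases (UGTs) sit in the endoplasmic reticulum and join glucuronic acid, taken from UDP-glucuronic acid, to phenols, bilirubin, steroids and drugs. Cytosolic sulfotransferases (SULTs) move a sulfate group from the donor PAPS to similar acceptors, and both kinds of conjugate leave the cell through ABC transporters. Carboxylesterases (CESs) cut ester and amide bonds in drugs, prodrugs and acylglycerols. In the small intestine all these enzymes meet swallowed compounds before they reach the portal blood.

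The check of the labels gave a mixed answer. Hnf4a was at 31.6 and 48.2 FPKM in the labelled double knockouts, against 156 and 202 FPKM in controls (log2 fold change -2.16, adjusted p = 0.0147). Cdx2 went against the label, at 159.8 and 161 FPKM in the labelled double knockouts and 70.9 and 65.2 FPKM in controls (log2 fold change 1.23, adjusted p = 0.0150), and a gene-level value does not show whether the deleted part was read. Without control 1 the adjusted p-values of Hnf4a and Cdx2 were 0.0624 and 0.0696, and without control 2 they were 0.0875 and 0.0868. Without double knockout 2, that of Cdx2 was 0.0602. The summed level of 7 epithelial markers was 13513 and 15167 FPKM in the labelled double knockouts and 13963 and 13724 FPKM in controls. Fabp2 and Krt8 made up most of that sum, while Epcam (527 and 531 FPKM in the labelled double knockouts, 1135 and 1281 FPKM in controls, adjusted p = 0.0300) and Vil1 (508 and 487 FPKM in the labelled double knockouts, 970 and 1024 FPKM in controls, adjusted p = 0.0411) were called lower. Neither call was kept when any 1 library was left out (adjusted p of 0.0843 to 0.164). Of 8 stomach epithelium markers, 6 (Gkn1, Gkn2, Tff2, Pgc, Atp4a and Gif) were called higher, where 3.77% of all genes tested were. These 6 were under 1 FPKM in both controls and passed the 1 FPKM mean through the labelled double knockouts alone. The 8 markers summed to 3357 and 1547 FPKM in the labelled double knockouts and 1.29 and 0.703 FPKM in controls. Tff1 was listed at 0 in all 4 libraries and Muc5ac reached 0.00906 FPKM at most. All 5 kidney tubule markers and 4 of 7 liver markers stayed under 1 FPKM in every library. Of the other liver markers Ttr was called higher (143 and 242 FPKM in the labelled double knockouts, 2.81 and 1.83 FPKM in controls), and Cps1, which the intestine also expresses, was at 81.2 and 117 FPKM in the labelled double knockouts and 189 and 171 FPKM in controls (adjusted p = 0.0826). Of 9 stroma and vessel markers Lyve1 was called higher (207 and 158 FPKM in the labelled double knockouts, 1.86 and 1.55 FPKM in controls), and 7 stayed under 1 FPKM. The 8 leukocyte markers summed to 11.4 and 19.0 FPKM in the labelled double knockouts and 19.7 and 55.0 FPKM in controls, and 0 were called. Lyz2 alone was at 1.86 and 2.66 FPKM in the labelled double knockouts and 8.60 and 34.8 FPKM in controls (adjusted p = 0.0741). The part of these other markers in the results below was not tested, and in bulk epithelium fewer cells of a type and less RNA per cell cannot be told apart.

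Among the 22 tested genes, 4 were higher and 6 lower in the labelled double knockouts. Differences were tested with limma on log2(FPKM + 1) across 10883 genes, and a gene was called at an adjusted p under 0.05. The 10 calls made up 45.5% of the tested genes, against 9.57% of all genes tested; 3.77% of all genes were called higher and 5.8% lower. The median absolute log2 fold change was 1.19 over the 22 genes and 0.32 over all genes tested. Both libraries of one genotype lay outside the range of the other in 19 of the 22 genes, against 60.7% of all genes. By family, 5 of 10 Ces, 3 of 5 Sult and 2 of 7 Ugt genes were called, and the median log2 fold changes were -1.05, 0.41 and 0.59, with 0.02 over all genes. Of the tested genes, 3 reached the 1 FPKM mean through 1 genotype alone: Ces2b through the controls, and Sult1a1 and Ugt2b38 through the labelled double knockouts.

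**Figure D1:**
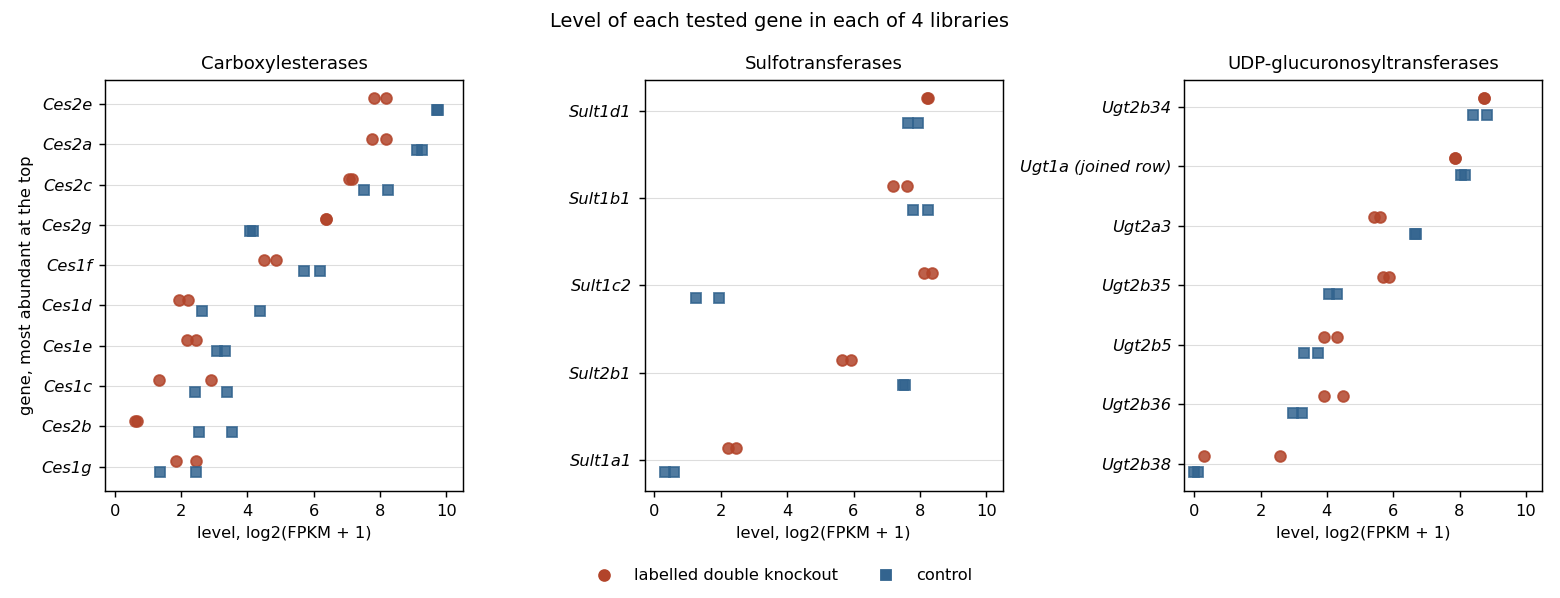
Level of each of the 22 tested genes as log2(FPKM + 1) on the horizontal axis, with 1 symbol per library (circles for the 2 labelled double knockouts, squares for the 2 controls) and genes from most to least abundant down each panel. Circles and squares lie apart in 19 genes, and the widest gap is that of Sult1c2.

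Of the 28 symbols under 1 FPKM, 13 were listed at 0 in all 4 libraries, 9 of them Sult. These include 7 numbered Sult2a genes, which belong to the hydroxysteroid sulfotransferases, and also Sult1c1 and Sult3a1. Of the other 15, only Ces1b reached 1 FPKM in any library, with 0.556 and 1.46 FPKM in the labelled double knockouts and 0.809 and 0.570 FPKM in controls. It also stood just outside the threshold, with a mean of 0.847 FPKM, while Ugt2b38 stood just inside with 1.33 FPKM. Ugt8a, whose product makes galactosylceramide and does not glucuronidate, was at 0.355 FPKM at most.

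**Figure D2:**
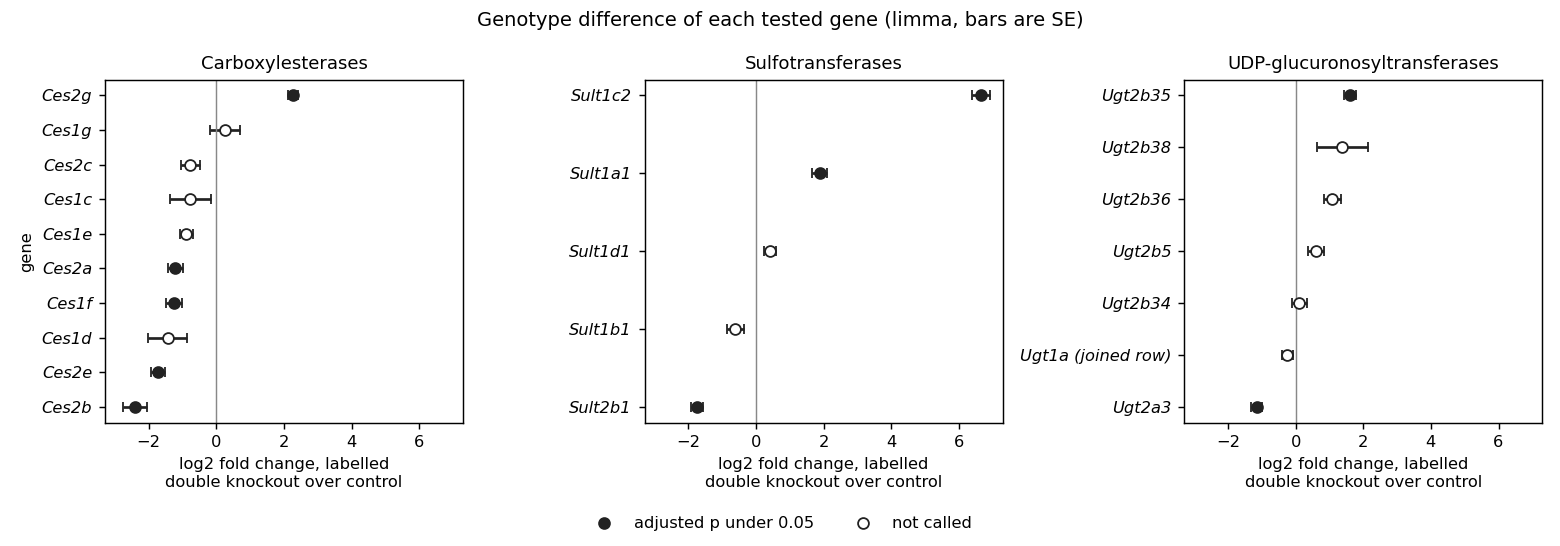
Log2 fold change of the labelled double knockouts over controls on the horizontal axis for each tested gene, with bars for the standard error; filled points have an adjusted p under 0.05 and open points do not. The called genes run from -2.41 for Ces2b to 6.66 for Sult1c2.

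The carboxylesterases had lower totals in the labelled double knockouts. Summed FPKM was 823 and 709 in the labelled double knockouts and 1761 and 1816 in controls, a ratio of 0.428 (766 ± 80.8 against 1788 ± 38.5; SD, n = 2 each). The groups did not overlap; with 2 libraries a genotype the smallest exact permutation p is 0.33, so no p is attached to these sums. Ces2e and Ces2a, the most abundant carboxylesterases, were both lower, and Ces2g ran the other way. Of the 7 epithelial markers, Epcam (log2 fold change -1.19) and Vil1 (values above) went in the same direction as the Ces sum, whose log2 ratio was -1.22. The other epithelial markers were not called. Among them Krt8, Cdh1 and Fabp2 had log2 fold changes of 0.47, 0.31 and 0.17, and Cdx1 and Krt20 had -0.03 and -0.12. The summed level of the 7 markers, given above, overlapped between the genotypes. The part of these markers in the Ces sum was not tested.

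Ces2e, a carboxylesterase of the intestinal CES2 group, was at 289 and 223 FPKM in the labelled double knockouts, against 836 and 863 FPKM in controls. The ranges did not overlap and the log2 fold change was -1.74 ± 0.21 (SE; adjusted p = 0.0144). It lies at chr8:107450160-107458572 in mm9, the build of the deposited files.

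Ces2a, its neighbour in abundance, had 286 and 214 FPKM in the labelled double knockouts and 612 and 547 FPKM in controls. Again the lowest control stood above the highest labelled double knockout, with a log2 fold change of -1.22 ± 0.22 (adjusted p = 0.0368; chr8:107257903-107265534, mm9). The share of the Ces sum held by Ces2a averaged 32.4% in both genotypes, whereas that of Ces2e was 33.3% in the labelled double knockouts and 47.5% in controls.

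Ces2g rose, at 82.3 and 81.6 FPKM in the labelled double knockouts against 17.1 and 15.7 FPKM in controls. The replicates differed by little next to this gap, which was 5.00-fold in mean FPKM (log2 fold change 2.25 ± 0.15, adjusted p = 0.00363; chr8:107485618-107493437, mm9). Ces2g made up 10.75% of the Ces sum in the labelled double knockouts and 0.918% in controls.

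The promoter windows of these 3 genes are shown because they are close relatives of 1 cluster that moved in opposite directions. Each window runs from 250 bases before to 50 after the start, from RefSeq on GRCm38.p6, all on the plus strand: chr8:104961468-104961767 for Ces2g, chr8:104926010-104926309 for Ces2e and chr8:104733753-104734052 for Ces2a. Capitals mark CAAAG, a motif of HNF4 binding sites, and TTTAT, the core letters of CDX sites, on either strand (CTTTG and ATAAA when read on the other).
Ces2g: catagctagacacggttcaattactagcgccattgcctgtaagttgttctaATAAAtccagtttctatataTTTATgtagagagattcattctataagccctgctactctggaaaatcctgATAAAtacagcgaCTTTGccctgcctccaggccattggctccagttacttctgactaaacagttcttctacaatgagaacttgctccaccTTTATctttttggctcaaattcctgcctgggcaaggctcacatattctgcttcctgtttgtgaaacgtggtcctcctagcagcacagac
Ces2e: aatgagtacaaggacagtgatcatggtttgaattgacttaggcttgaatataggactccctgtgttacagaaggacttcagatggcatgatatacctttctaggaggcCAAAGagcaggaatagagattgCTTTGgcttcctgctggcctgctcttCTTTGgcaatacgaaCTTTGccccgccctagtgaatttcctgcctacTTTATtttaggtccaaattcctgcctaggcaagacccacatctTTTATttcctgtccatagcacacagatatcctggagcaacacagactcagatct
Ces2a: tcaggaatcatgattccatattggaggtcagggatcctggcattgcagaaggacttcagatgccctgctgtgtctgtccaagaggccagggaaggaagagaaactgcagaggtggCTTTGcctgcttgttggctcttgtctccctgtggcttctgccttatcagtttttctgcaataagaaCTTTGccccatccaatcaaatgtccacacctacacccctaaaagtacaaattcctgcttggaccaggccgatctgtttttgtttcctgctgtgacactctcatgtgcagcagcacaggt
The Ces2e window held 4 matches of CAAAG and the Ces2a window 2. The Ces2g window held 1, at 116 bases before the start, and 4 of TTTAT, against 2 in Ces2e and 0 in Ces2a. Ces2e and Ces2a shared a longest run of 17 letters, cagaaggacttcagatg, and Ces2g and Ces2e one of 13, caaattcctgcct, which begins 24 and 34 bases before their starts. A match is only a match of letters: CAAAG was in the windows of 70.2% of the 47 members with a window and in 57.4% of 27025 genes, and TTTAT in 61.7% and 43.8%. Among called members, 4 of 4 higher and 4 of 4 lower genes with a window held CAAAG, so its presence did not part them. TTTAT was in 2 of 4 higher and 2 of 4 lower genes, and in 8 of 10 tested members not called, so its presence did not part them either. The longer CAAAGTCCA, which contains CAAAG, was found in 1 member, Sult1b1 (2.13% of members, 0.555% of genes), and TTTATNG, which contains TTTAT, in 12.8% of members and 12.5% of genes.

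Ces2b and Ces1f also fell. Ces2b was at 0.535 and 0.583 FPKM in the labelled double knockouts and 4.85 and 10.7 FPKM in controls (log2 fold change -2.41 ± 0.36, adjusted p = 0.0225; chr8:107355544-107362552, mm9). The groups lay well apart although the controls differed 2.20-fold between themselves. Ces1f, a CES1 group enzyme that acts on acylglycerols in mouse liver, was at 21.5 and 28.2 FPKM in the labelled double knockouts and 71.2 and 51.3 FPKM in controls, also without overlap (log2 fold change -1.26 ± 0.24, adjusted p = 0.0400; chr8:95780135-95803635, mm9).

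Ces2g was the carboxylesterase called in every fit that left out 1 library. Without control 1 the adjusted p-values of Ces2e, Ces2a and Ces1f were 0.0725, 0.124 and 0.120. Without control 2 those of Ces2e, Ces2a, Ces2b and Ces1f were 0.0825, 0.122, 0.0609 and 0.0868. Without double knockout 1 those of Ces2a, Ces2b and Ces1f were 0.0537, 0.0766 and 0.124, and without double knockout 2 those of Ces2e, Ces2a, Ces2b and Ces1f were 0.0578, 0.128, 0.0874 and 0.0788. The direction stayed the same in each of these fits. With no filter but a mean above 0, Ces2a, Ces2b and Ces1f had adjusted p-values of 0.0681, 0.0548 and 0.0699. The Ces1f call was also lost with quantile normalization (0.0547) and with FPKM estimated for each library alone (0.0741).

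The other 5 tested carboxylesterases were not called. Ces2c, the third in abundance, had 132 and 140 FPKM in the labelled double knockouts and 180 and 302 FPKM in controls (log2 fold change -0.77 ± 0.28, adjusted p = 0.157). Ces1d, the triacylglycerol hydrolase of mouse liver, had 2.82 and 3.64 FPKM in the labelled double knockouts and 19.8 and 5.25 FPKM in controls, the controls differing 3.78-fold from each other (log2 fold change -1.44 ± 0.58, adjusted p = 0.188, and 0.0488 without control 2). Ces1e had a log2 fold change of -0.89 ± 0.19 (adjusted p = 0.0557) with groups that did not overlap. Ces1c, the carboxylesterase secreted into mouse plasma, and Ces1g had groups that overlapped, with log2 fold changes of -0.77 ± 0.60 and 0.25 ± 0.43, and the sign of both turned when 1 library was left out.

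Single-end reads of 75 bases can fall on sequence that 2 genes share. Of all 75-base windows in GENCODE transcripts of Ces2e, Ces2g and Ces2b, 0.334%, 0.603% and 1.61% occurred in another gene, and none of those of Ces1f or Ces1d did. The share was 11.4% for Ces2a, whose partner is the predicted gene Gm7208, and 22.1% for Ces2c, mostly with the pseudogene Ces2d-ps, so the split of reads between Ces2c and Ces2d-ps is uncertain.

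**Figure D3:**
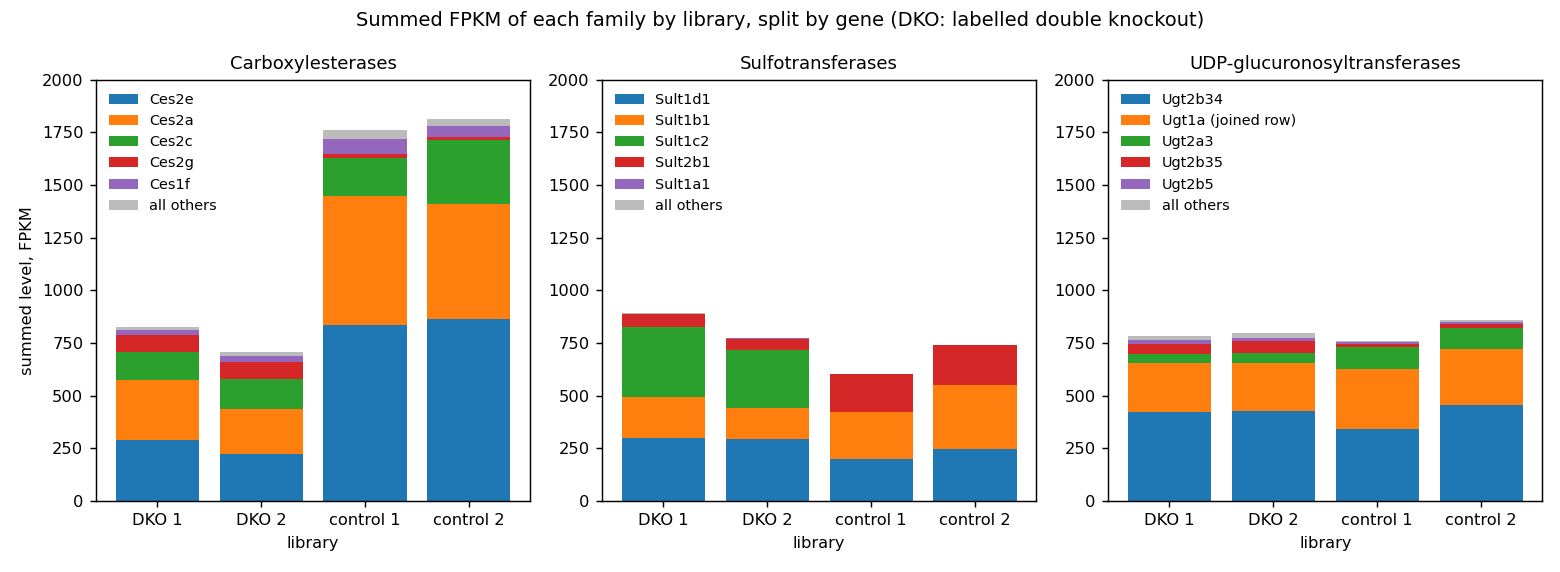
Summed FPKM of each family in each library on the vertical axis, split into the 5 most abundant genes and all others, with the 2 labelled double knockouts left of the 2 controls. The Ces bars stand at 823 and 709 against 1761 and 1816 FPKM, while the Ugt bars lie between 760 and 859 FPKM in all 4 libraries.

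Among sulfotransferases Sult1c2 rose and led the family in the labelled double knockouts. It was at 331 and 279 FPKM in the labelled double knockouts, against 2.85 and 1.37 FPKM in controls. The groups were separated by far more than their spread, with a 144.9-fold ratio of means (log2 fold change 6.66 ± 0.28, adjusted p = 0.00133; chr17:53968962-53985283, mm9). Sult1c2 held 36.7% of the Sult sum in the labelled double knockouts, ranking 1, and 0.329% in controls, ranking 4. The call was kept in each fit that left out 1 library, with adjusted p-values of 0.00906 to 0.0284, and none of its 75-base windows is shared with another gene. Of the 8 stomach markers, the 6 called higher went in the same direction as Sult1c2, while Tff1 and Muc5ac were at or near 0 throughout. Gkn2 led them, at 1789 and 761 FPKM in the labelled double knockouts and 0.0861 FPKM or a listed 0 in controls. The Atp4a and Gif calls were not kept when either control was left out. The part of the stomach markers in the Sult1c2 difference was not tested.

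Its promoter window is printed because Sult1c2 has the largest fold change of the 22 genes (RefSeq, GRCm38.p6, chr17:53845909-53846208, minus strand; capitals as above).
Sult1c2: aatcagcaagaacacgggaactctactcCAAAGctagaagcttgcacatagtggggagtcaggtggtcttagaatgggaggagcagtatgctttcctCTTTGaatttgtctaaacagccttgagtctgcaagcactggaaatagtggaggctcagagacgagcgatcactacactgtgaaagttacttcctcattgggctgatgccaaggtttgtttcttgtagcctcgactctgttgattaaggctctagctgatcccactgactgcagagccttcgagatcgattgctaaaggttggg
It held 2 matches of CAAAG, at 222 and 153 bases before the start, and 0 of TTTAT.

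Sult1a1, which sulfates small phenols, was also higher but stayed low, at 3.62 and 4.48 FPKM in the labelled double knockouts against 0.506 and 0.246 FPKM in controls. The groups did not overlap, and the log2 fold change was 1.88 ± 0.22 (adjusted p = 0.0130; 10.8-fold in mean FPKM; chr7:133816384-133819871, mm9). Sult2b1, the enzyme that sulfates cholesterol and pregnenolone, fell to 59.4 and 49.1 FPKM in the labelled double knockouts, against 178 and 187 FPKM in controls (log2 fold change -1.74 ± 0.17, adjusted p = 0.00895; chr7:52985353-53014925, mm9). It ranged from 6.36% to 6.68% of the Sult sum in the labelled double knockouts and from 25.4% to 29.6% in controls. Without control 1 the adjusted p-values of Sult1a1 and Sult2b1 were 0.0570 and 0.0575, and without control 2 they were 0.0664 and 0.0655. Windows shared with other genes made up 4.47% of Sult2b1, mostly with Lmtk3 on the other strand, and 3.37% of Sult1a1; the sources used here do not say whether reads kept their strand.

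Sult1d1, which sulfates catecholamines in mice, had 299.9 and 294 FPKM in the labelled double knockouts and 200.4 and 247 FPKM in controls (log2 fold change 0.41 ± 0.19, adjusted p = 0.231). Sult1b1, which acts on thyroid hormones, had 195 and 145 FPKM in the labelled double knockouts and 219 and 302 FPKM in controls (log2 fold change -0.61 ± 0.25, adjusted p = 0.202). The libraries of these abundant genes did not overlap between genotypes, but neither difference was called. The Sult sum was 889.8 and 772 FPKM in the labelled double knockouts and 602 and 738.5 FPKM in controls. Without Sult1c2 the order turned, with 558 and 493 FPKM in the labelled double knockouts and 599 and 737 FPKM in controls.

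In the normalized table the Ugt totals overlapped between the genotypes, while the makeup of the family differed. Summed FPKM was 784 and 797 in the labelled double knockouts and 760 and 859 in controls, which overlap, with a ratio of 0.977. In FPKM estimated for each library alone the sums did not overlap, at 668 and 722 in the labelled double knockouts and 593 and 622 in controls. Their log2 ratio was 0.20, where the median of all genes was 0.17. With the normalized table centred on its library medians the log2 ratio was -0.03. Ugt2b34, the most abundant UGT, was at 423 and 426 FPKM in the labelled double knockouts and 341 and 456 FPKM in controls (log2 fold change 0.11 ± 0.22, adjusted p = 0.789), and it supplied 53.7% of the sum in the labelled double knockouts and 49.0% in controls.

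Ugt2a3, whose human counterpart glucuronidates bile acids, fell to 42.0 and 47.8 FPKM in the labelled double knockouts, against 103 and 99.4 FPKM in controls. The replicates of each genotype lay close together and the groups far apart (log2 fold change -1.16 ± 0.16, adjusted p = 0.0177; chr5:87753997-87766220, mm9). Ugt2b35, of the UGT2B group that handles steroids, rose to 51.0 and 57.1 FPKM in the labelled double knockouts, against 15.6 and 18.6 FPKM in controls (log2 fold change 1.61 ± 0.17, adjusted p = 0.0100; chr5:87429885-87442299, mm9). The 2 genes changed places in the family: Ugt2b35 ranked 3 and Ugt2a3 ranked 4 in the labelled double knockouts, and the reverse in controls. With 1 library left out, Ugt2a3 had adjusted p-values of 0.0844 (control 1), 0.0908 (control 2), 0.0627 (double knockout 1) and 0.0529 (double knockout 2). Those of Ugt2b35 were 0.0581 without control 1 and 0.0560 without control 2.

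The remaining UGT2B genes had positive fold changes that were not called. Ugt2b36 was at 13.9 and 21.5 FPKM in the labelled double knockouts and 6.82 and 8.60 FPKM in controls, without overlap (log2 fold change 1.08 ± 0.26, adjusted p = 0.0660). In FPKM estimated for each library alone its adjusted p was 0.0460. Ugt2b5 had 18.7 and 14.1 FPKM in the labelled double knockouts and 8.84 and 12.3 FPKM in controls (log2 fold change 0.59 ± 0.23, adjusted p = 0.183). Ugt2b38 rested on 1 library, at 5.00 and 0.233 FPKM in the labelled double knockouts, against 0.0872 FPKM in control 1 and a listed 0 in control 2 (log2 fold change 1.38 ± 0.75, adjusted p = 0.297). Without double knockout 2 its adjusted p was 0.0223, with double knockout 1 alone in its arm. Ugt2b5 and Ugt2b38 share 30.4% and 28.0% of their windows with other genes, chiefly each other, so that reads may be split between them, while Ugt2b35 and Ugt2b36 share none.

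The Ugt1a locus joins 8 genes in 1 row of the normalized table. These genes have their own first exons and common downstream exons, and the first exon sets the substrate range. The joined row stood at 229.7 and 230.2 FPKM in the labelled double knockouts and 285 and 263 FPKM in controls (log2 fold change -0.25 ± 0.17, adjusted p = 0.383; chr1:89951986-90116577, mm9). The files made for each library alone list the 8 genes separately, and 5 of them reached a mean of 1 FPKM. In those files 4.81% of 10717 genes were called higher, and the median log2 fold change of all genes was 0.17.

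Ugt1a6a, a phenol-conjugating UGT, was at 16.0 and 19.5 FPKM in the labelled double knockouts and 0.677 and 0.595 FPKM in controls. It passed the 1 FPKM mean through the labelled double knockouts alone, as did Ugt1a6b. Mean FPKM was 27.9-fold higher, with no overlap (log2 fold change 3.51 ± 0.21, adjusted p = 0.00145), and 3.36 with an adjusted p of 0.00155 once each library was centred on its median. Ugt1a1, the UGT that clears bilirubin, had 29.2 and 32.6 FPKM in the labelled double knockouts and 94.1 and 48.2 FPKM in controls (log2 fold change -1.10 ± 0.33, adjusted p = 0.101). Both controls stood above both labelled double knockouts, but the controls differed 1.95-fold from each other.

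Ugt1a7c, the most abundant of the locus, had 158 and 149 FPKM in the labelled double knockouts and 139 and 149 FPKM in controls (log2 fold change 0.09 ± 0.17, adjusted p = 0.759), which overlap. Ugt1a6b rested on double knockout 2, at 0.834 and 12.4 FPKM in the labelled double knockouts and 0.407 and 0.124 FPKM in controls (log2 fold change 1.98 ± 0.89, adjusted p = 0.215, and 0.000323 without double knockout 1). Ugt1a9 overlapped between genotypes (log2 fold change 0.61 ± 0.54, adjusted p = 0.499). The genes share 51.2% to 78.8% of their 75-base windows with other genes, and 74.5% of the windows of Ugt1a6b occur in Ugt1a6a, so how reads were divided among them is uncertain. These genes were separated after their values in the joined row had been seen.

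**Figure D4:**
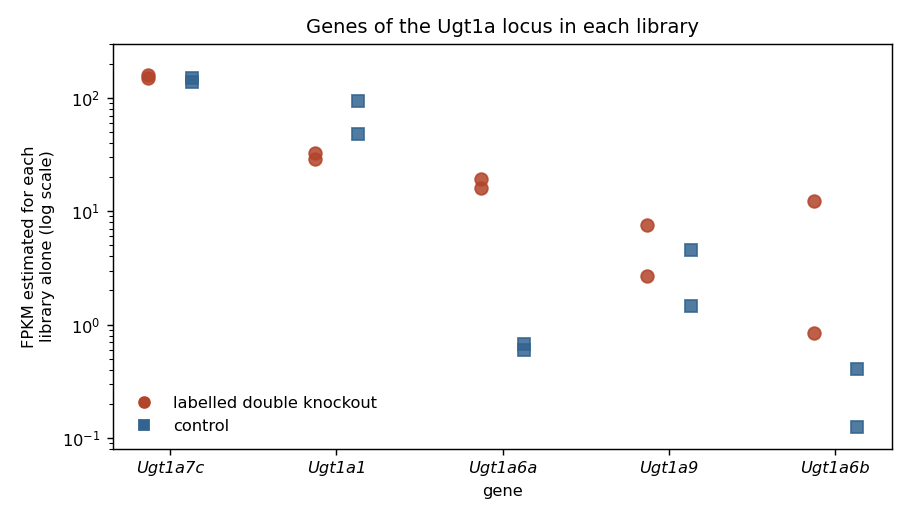
FPKM estimated for each library alone, on a log scale, for the 5 genes of the Ugt1a locus with a mean of at least 1 FPKM; circles are the 2 labelled double knockouts and squares the 2 controls. Ugt1a6a is at 16.0 and 19.5 against 0.677 and 0.595 FPKM, while Ugt1a7c is near 150 FPKM in both genotypes.

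The windows of Ugt1a6a and Ugt1a1 are shown as alternative starts of 1 locus whose values differed in opposite directions, Ugt1a6a called and Ugt1a1 not (RefSeq, GRCm38.p6, plus strand; chr1:88134559-88134858 for Ugt1a6a and chr1:88211709-88212008 for Ugt1a1; capitals as above).
Ugt1a6a: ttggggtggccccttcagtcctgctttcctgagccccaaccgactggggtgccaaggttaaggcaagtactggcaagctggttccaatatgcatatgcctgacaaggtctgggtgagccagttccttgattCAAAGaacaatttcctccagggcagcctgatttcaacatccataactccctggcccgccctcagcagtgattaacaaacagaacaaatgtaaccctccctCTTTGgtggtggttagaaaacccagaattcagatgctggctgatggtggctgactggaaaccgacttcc
Ugt1a1: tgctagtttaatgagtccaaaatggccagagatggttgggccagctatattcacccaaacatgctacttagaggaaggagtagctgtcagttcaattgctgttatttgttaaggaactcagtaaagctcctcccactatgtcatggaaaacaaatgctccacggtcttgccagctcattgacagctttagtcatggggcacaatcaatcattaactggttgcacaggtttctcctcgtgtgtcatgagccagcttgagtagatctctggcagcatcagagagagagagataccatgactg
The Ugt1a6a window held CAAAG matches at 119 and 19 bases before the start. The Ugt1a1 window held 0 of either motif, and the longest run shared by both windows was 8 letters.

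Most members sit in 3 clusters, of which those of Ugt2 and Sult1 genes and of Ces2 to Ces4 genes hold both higher and lower calls. Over all genes tested, 3.77% were called higher and 5.8% lower. The calls of Ugt2a3, Ces1f and Ces2a, counted below, were not kept when any 1 library was left out. The cluster of Ugt2 and Sult1 genes on chromosome 5 (chr5:87318795-88020636, mm9) holds 12 entries over 702 kb, of which 8 were tested, 1 was higher (Ugt2b35) and 1 lower (Ugt2a3). The cluster of Ces1 genes and Ces5a on chromosome 8 (chr8:95544114-96059607, mm9) holds 8 genes over 515 kb, with 5 tested, 0 higher and 1 lower. The cluster of Ces2, Ces3 and Ces4a genes further along chromosome 8 (chr8:107257903-107674009, mm9) holds 11 genes over 416 kb, with 5 tested, 1 higher and 3 lower. In that cluster Ces2e, which fell, and Ces2g, which rose, are parted by Ces2f alone, which was at 0.304 FPKM at most.

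**Figure D5:**
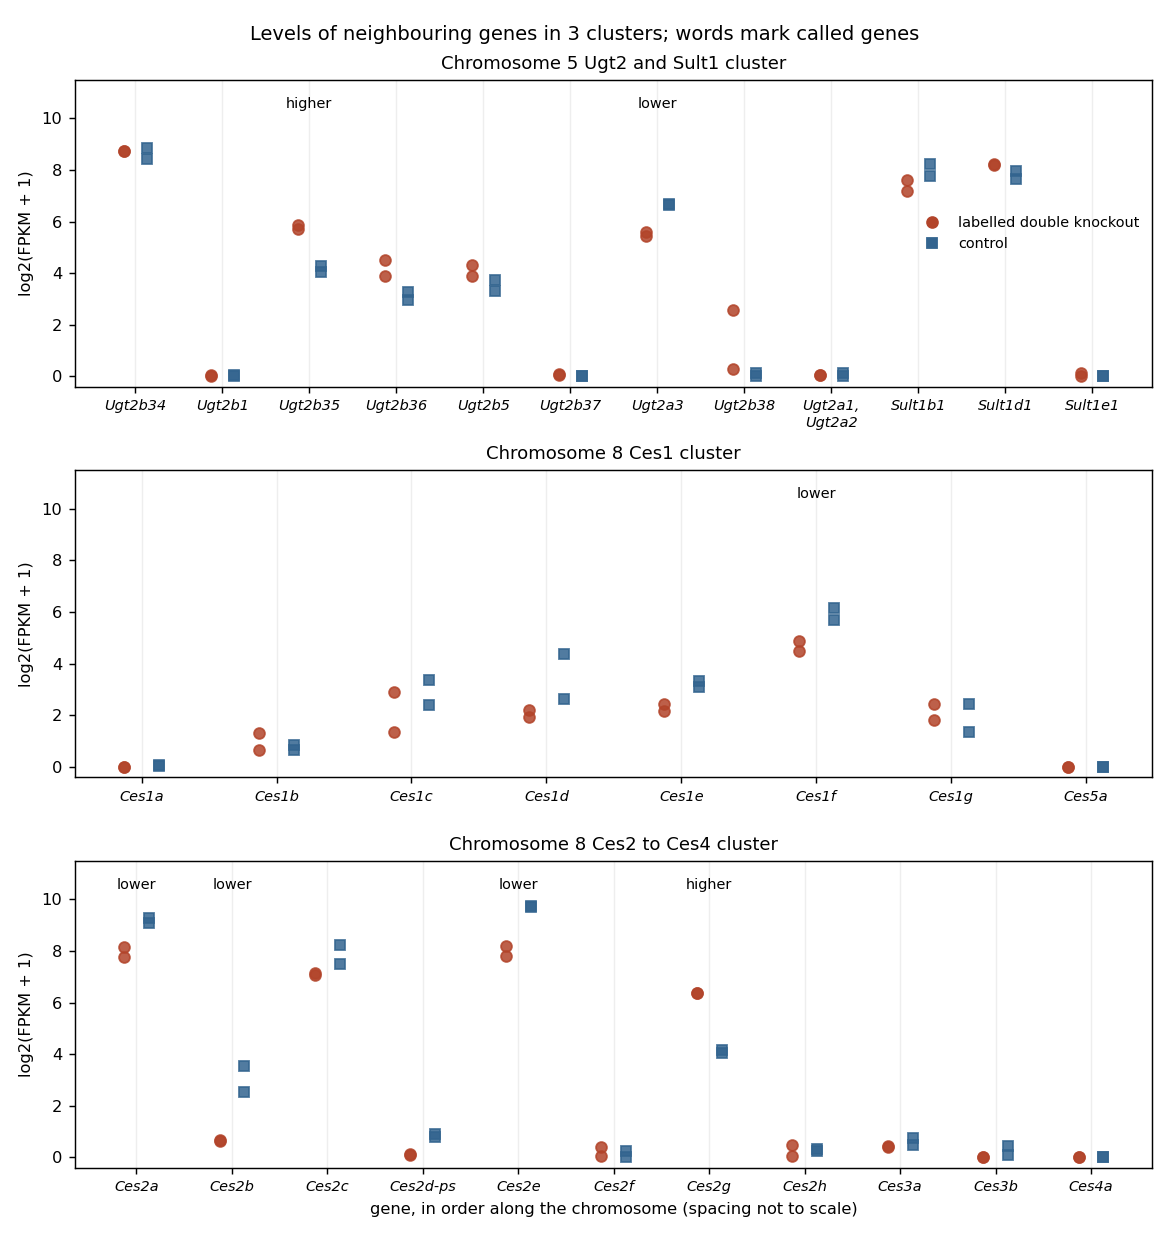
Level as log2(FPKM + 1) on the vertical axis for the genes of the 3 clusters in their order along the chromosome, spacing not to scale; circles are the 2 labelled double knockouts, squares the 2 controls, and words mark called genes. Genes at high levels stand beside genes near 0, and in the lowest panel Ces2e and Ces2g move in opposite directions.

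Genes that serve these enzymes were followed in 6 lists of 81 entries, of which 67 were tested, 8 were higher and 11 lower. The calls made up 28.4% of the tested list genes, against 9.57% of all genes (3.77% higher and 5.8% lower), and the median log2 fold change was 0.07 against 0.02. Without control 1, 3 of the 19 calls were kept (Abcb1a, Slco2b1 and Tst), and the other 16 genes had adjusted p-values of 0.0543 to 0.110. Without control 2 there were 5 calls among the list genes, and without double knockout 1 or 2 there were 15 or 14.

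In the supply of UDP-glucuronic acid and the cleavage of glucuronides, 2 of 10 tested genes were higher and 0 lower. Slc35d1, which carries UDP-glucuronic acid into the endoplasmic reticulum, was at 29.96 and 30.02 FPKM in the labelled double knockouts, against 11.3 and 13.8 FPKM in controls (log2 fold change 1.20, adjusted p = 0.0182). Gusb, the lysosomal β-glucuronidase that removes glucuronic acid, was at 31.1 and 20.7 FPKM in the labelled double knockouts, against 8.13 and 6.997 FPKM in controls (log2 fold change 1.63, adjusted p = 0.0207). Both stood clear of the controls, while Ugdh, which makes UDP-glucuronic acid and is the most abundant of the list, overlapped (log2 fold change 0.20, adjusted p = 0.562). The Slc35d1 call was not kept when any 1 library was left out, and that of Gusb was kept only without double knockout 2. In those fits the log2 fold change ran from 1.06 to 1.33 for Slc35d1 and from 1.35 to 1.91 for Gusb.

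In sulfate supply 0 of 11 tested genes were higher and 2 lower. Papss1, a synthase of PAPS, was at 23.1 and 16.4 FPKM in the labelled double knockouts and 51.3 and 54.2 FPKM in controls (log2 fold change -1.39, adjusted p = 0.0219), and the anion exchanger Slc26a3 at 25.2 and 23.9 FPKM in the labelled double knockouts and 64.5 and 69.7 FPKM in controls (log2 fold change -1.42, adjusted p = 0.0100). With 1 library left out, the Papss1 call was kept only without double knockout 1, and its log2 fold change ran from -1.63 to -1.16. Bpnt1, a phosphatase that clears PAP, was the most abundant (log2 fold change -0.27, adjusted p = 0.499). Among 14 other esterases and hydrolases, Mgll, monoacylglycerol lipase, was higher (8.80 and 6.41 FPKM in the labelled double knockouts against 1.13 and 1.67 FPKM in controls, adjusted p = 0.0151). With 1 library left out the Mgll call was kept only without double knockout 2, and its log2 fold change ran from 1.64 to 2.04. Lipe, hormone-sensitive lipase, was lower (9.16 and 5.57 FPKM in the labelled double knockouts against 48.4 and 37.1 FPKM in controls, adjusted p = 0.0120). Ephx2, soluble epoxide hydrolase and the most abundant there, was not called (log2 fold change -0.24, adjusted p = 0.669).

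In the list of efflux and uptake transporters, not all of them carriers of conjugates or bile acids, 3 of 12 tested genes were higher and 5 lower. Abcc2, the apical exporter of glucuronides, was at 43.8 and 43.1 FPKM in the labelled double knockouts and 80.9 and 109.8 FPKM in controls (log2 fold change -1.10, adjusted p = 0.0373). Abcc3, the basolateral exporter of glucuronides, was at 75.9 and 58.4 FPKM in the labelled double knockouts and 17.3 and 22.1 FPKM in controls (log2 fold change 1.72, adjusted p = 0.0147). The groups did not overlap in either gene. The Abcc2 call was not kept when any 1 library was left out (adjusted p of 0.0624 to 0.129) or with no filter (0.0605), and that of Abcc3 was lost without control 1 (0.0754) or control 2 (0.0655). The drug pump Abcb1a fell to 5.61 and 7.73 FPKM in the labelled double knockouts, against 128 and 164 FPKM in controls (log2 fold change -4.27, adjusted p = 0.00203). Slco2b1, Slc51a and Abcc6 were also lower, with log2 fold changes of -3.60, -2.42 and -2.17, and Slc10a2 and Slco2a1 higher, with 1.72 and 1.62. Slco2b1 and Abcc6 passed the 1 FPKM mean through the controls alone, and Slc10a2 through the labelled double knockouts alone. At a pseudocount of 5 (adjusted p = 0.0501) and with no filter (0.0535) the Abcc6 call was lost. With 1 library left out it was kept only without control 2, and the Abcc6 log2 fold change ran from -2.61 to -1.73. The Slc10a2 call was lost when any 1 library was left out (adjusted p of 0.0745 to 0.120), at a pseudocount of 0.1 (0.0540) and with no filter (0.0786). Slc51b, the most abundant, was not called (log2 fold change -0.34, adjusted p = 0.249).

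Of 11 tested xenobiotic-sensing receptors and partners, 0 were higher and 2 lower. Nr1i3, which encodes the receptor CAR, was at 13.3 and 8.89 FPKM in the labelled double knockouts and 35.2 and 29.2 FPKM in controls (log2 fold change -1.47, adjusted p = 0.0270). Its call was lost with no filter (0.0555). With 1 library left out it was kept only without double knockout 1, with log2 fold changes of -1.74 to -1.20 across those fits. Vdr, the vitamin D receptor gene, was at 16.1 and 20.4 FPKM in the labelled double knockouts and 100.2 and 80.4 FPKM in controls (log2 fold change -2.25, adjusted p = 0.00806). The groups did not overlap in either gene, and Nfe2l2, the most abundant of the list, was not called (log2 fold change 0.14, adjusted p = 0.753). Among 9 other conjugation genes, Tst and Mpst, sulfurtransferases, were higher (log2 fold changes of 4.13 and 1.62, adjusted p = 0.001365 and 0.00809). Nat8, an acetyltransferase of cysteine conjugates, was lower (-2.81, adjusted p = 0.0229), at 16.3 and 6.25 FPKM in the labelled double knockouts and 74.0 and 81.1 FPKM in controls. The Tst call was kept when any 1 library was left out. Those of Mpst and Nat8 were lost without control 1 or control 2, and that of Nat8 also with no filter (0.0537).

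The authors' deposited table of their own comparison held 23 member rows with a completed test and called 12, 5 higher and 7 lower, against 13.2% of all 11594 completed tests. It called all 10 of the genes called here and also Ugt2b36 (q = 0.0105) and Ces1d (q = 0.000868).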

How the data were processed

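RNA was measured by sequencing 2 labelled double knockout and 2 control libraries, grouped by sample title. The labels call them independent biological replicates. The p-values set each difference against the spread between replicates, which limma moderates with that of all genes tested. Per the submitters' processing notes the build was mm9 and the tools, named without roles, were Cuffdiff, Cuffnorm, Cufflinks (version 2.1.1) and TopHat2 (version 2.0.9). The authors deposited a normalized table whose header names no unit (taken as FPKM from its values), FPKM estimated for each library alone, and a comparison table with p-values and q-values. The files hold no read counts, so depth is unknown and no counting interval is given.

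Here rows sharing a symbol were summed, 1036 short RNA symbols left out, and genes averaging 1 FPKM or more tested with limma version 3.58.1 (R version 4.3.3) on log2(FPKM + 1), which understates changes of low genes, two-sided, with an intensity trend and Benjamini-Hochberg adjustment over 10883 genes. All adjusted p-values are from limma; the fit was tested on simulated data. In the per-library files, 52 symbols not found in all 4 files and 1 with a failed estimate were left out. Starts in the files count from 0 and are given from 1. Promoter windows were matched by symbol in RefSeq (47 of 58 symbols, joined rows split), and 75-base windows came from GENCODE transcripts. The enzymes and lists were chosen with earlier results of these data known. Text names every called member, the 3 most abundant of each family, uncalled members past a log2 fold change of 1 and, per list, called genes and the most abundant; Ces1c, Ces1e, Ces1g, Ugt2b5, Ces2f, Ugt8a, Ces2d-ps, Sult6b1 and the Ugt1a genes were added after their values were seen. Alternatives were pseudocounts of 0.1 and 5, no filter or one of 5 FPKM, median centring, quantile normalization, per-library FPKM, no trend, a replicate block and each library left out.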

Additional observations from a re-analysis of the deposited data

How the results depend on the processing

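Over all genes, 1041 genes were called (410 higher, 631 lower); 707 were called with no filter but a mean above 0, and 993 (515 higher, 478 lower) with FPKM estimated for each library alone, where the median gene shifted by 0.17 on the log2 scale. Leaving out 1 library gave 171 to 693 calls over all genes, 0 to 2 of the Ugt genes, 1 to 3 of the Sult genes, 1 to 2 of the Ces genes and 3 to 15 of the pathway genes; the lone library is then assumed to vary like the other genotype. The calls for Sult1c2 and Ces2g were kept in all 4 of these fits, those for Ces2a, Ces1f and Ugt2a3 in none, and the 10 called genes kept their direction. With FPKM for each library alone, 4 Ugt genes were called, Ugt1a6a and Ugt2b36 among them, with the Ugt1a genes on rows of their own, and the log2 ratios of the family sums were 0.20 for Ugt and -1.06 for Ces, against -0.03 and -1.22. With no filter 3 Ces genes were called (Ces2e, Ces2g and Ces2d-ps). Replicate numbers were not shown to pair the samples (correlation of the replicate differences -0.00481 across genes); with a replicate block 786 genes (310 higher, 476 lower) and 3 Ces genes were called, without Ces2a (adjusted p = 0.0591) and Ces1f (0.0710); Ugt2b36 was called, and Abcc2 (0.0615) and Slc10a2 (0.0681) were not. Log2 fold changes turned sign in uncalled genes: with 1 library left out, Ces1c ran from -1.56 to 0.00697 (without double knockout 1), Ces1g from -0.29 (without control 2; -0.06 without double knockout 2) to 0.80, Ugt2b34 from -0.10 (without control 1) to 0.32 and Ugt1a9 from -0.00801 (without double knockout 2) to 1.23. With median centring Ugt1a7c had -0.0614. The cause of these changes was not tested. Unknown depth limits what can be said of genes under 1 FPKM.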

Other observations

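Some members under a mean of 1 FPKM did not overlap between the genotypes, and 60.7% of all tested genes did not overlap either. Of these members, Ces2d-ps and Sult6b1 are given as values and were outside the main test. Ces2d-ps was tested, and called, only in the fit with no filter. Ces2d-ps, a pseudogene within the Ces2 cluster, was at 0.0857 and 0.0560 FPKM in the labelled double knockouts and 0.865 and 0.733 FPKM in controls, and 65.3% of its 75-base windows occur in other genes. Sult6b1 was at 0.203 and 0.319 FPKM in the labelled double knockouts and 0.0265 and 0.0772 FPKM in controls.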
